A study of Mus musculus with 4 samples.

Results

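Interstitial collagens are the structural proteins of the space between cells, and 10 of their genes, Col1a1, Col1a2, Col3a1, Col5a1, Col5a2, Col6a1, Col6a2, Col6a3, Col12a1 and Col14a1, were followed in C2C12 cells given interferon-γ (IFN-γ). Every probe on the arrays that was not a control and whose transcript accession belonged to one of these genes was kept. This gave 9 probes of 8 genes, of 39429 probes in all and 19751 genes with a named probe, and all 9 probes passed the filter on dim signal. Col14a1 had 2 probes and the other genes had 1 each. No probe was named for Col6a3 or Col12a1, which are not analysed here.

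C2C12 is an established line of mouse myoblasts, which fuse into myotubes when serum is lowered. The treated cells were on day 3 of differentiation with IFN-γ at 1 ng/ml. The control cells were on day 3 of differentiation in the same medium with no cytokine, whose horse serum the labels give both as 2% and as 10%. RNA of the treated cells, in Cy5, and RNA of the control cells, in Cy3, were hybridised together on each of 4 two-colour arrays, called replicates 1 to 4. The arrays are biological replicates per the labels, but nothing there tells if each control RNA came from a culture of its own. The p-values therefore cover the spread between these arrays, some of which may be technical.

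Collagen chains are folded in threes in the endoplasmic reticulum, where proline and lysine residues are hydroxylated, and are secreted as procollagens whose end pieces are cut off before assembly. Types I, III and V, encoded by Col1a1 and Col1a2, by Col3a1, and by Col5a1 and Col5a2, form the banded fibrils of connective tissue, with type V setting fibril diameter. Type VI, built from the chains of Col6a1, Col6a2 and Col6a3, makes beaded filaments near the surface of muscle cells, and its human mutations cause Ullrich and Bethlem muscle disease. Type XIV, encoded by Col14a1, belongs to the fibril-associated collagens with interrupted helices, which sit on the surface of fibrils. Fibroblasts make most interstitial collagen of muscle, and cultured myoblasts make some of it too. In human fibroblasts IFN-γ is known to repress transcription of type I collagen genes.

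The promoters of 3 members are shown because these genes stood at different places in the response, with Col3a1 called higher, Col1a2 not past the threshold and Col6a1 called lower under loess normalisation. Each is the 250 bases before the annotated gene start in RefSeq, build GRCm38.p6, read 5′ to 3′ on the gene's strand. Those of Col3a1 (chr1:45311288-45311537) and Col1a2 (chr6:4505368-4505617) lie on the plus strand and that of Col6a1 (chr10:76726045-76726294) on the minus strand. Capitals mark matches, on either strand, to the CCAAT box, the GC box GGGCGG, the TATA box TATAAA, the STAT-type GAS site TTCNNNGAA, or an interferon response core made of GAAA, any 2 bases and again GAAA.
Col3a1: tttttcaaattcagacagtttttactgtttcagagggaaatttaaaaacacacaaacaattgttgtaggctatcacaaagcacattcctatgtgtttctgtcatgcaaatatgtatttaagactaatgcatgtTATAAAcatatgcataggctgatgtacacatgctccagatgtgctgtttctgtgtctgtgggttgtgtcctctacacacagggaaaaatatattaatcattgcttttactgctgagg
Col1a2: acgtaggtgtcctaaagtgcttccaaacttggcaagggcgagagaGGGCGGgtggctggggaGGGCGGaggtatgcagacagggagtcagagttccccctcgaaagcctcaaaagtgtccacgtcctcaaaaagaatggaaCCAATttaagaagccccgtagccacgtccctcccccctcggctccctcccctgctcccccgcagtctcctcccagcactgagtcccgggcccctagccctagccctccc
Col6a1: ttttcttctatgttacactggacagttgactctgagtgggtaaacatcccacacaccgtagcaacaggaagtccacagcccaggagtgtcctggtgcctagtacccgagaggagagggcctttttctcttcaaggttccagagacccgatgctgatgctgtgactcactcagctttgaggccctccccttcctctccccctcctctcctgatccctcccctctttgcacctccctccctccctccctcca

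The Col3a1 window held 1 TATAAA, from base 117 to base 112 before the start, had 35.2% G and C and held no CG dinucleotide. The Col1a2 window held 2 GC boxes and 1 CCAAT, had 62.0% G and C and 11 CG dinucleotides, and no 2 of its matches overlapped. The Col6a1 window held none of the 5 motifs and had 56.0% G and C. Neither the GAS nor the interferon response letters were in any of these 3 windows. Among 32851 promoter windows of the same length, 33.8% held CCAAT, 32.7% a GC box, 12.4% TATAAA, 7.0% the GAS letters and 3.0% the interferon response letters. Such matches describe letters and not bound sites.

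The arrays are described by a few facts that touch these genes. The median raw spot intensity lay between 149.5 and 264 in Cy5, the treated channel, and between 79.8 and 97 in Cy3, the control channel, and no array had the dyes exchanged. A dye bias of a probe therefore cannot be told apart from the treatment. Replicate 2 stood apart, with correlations of 0.524 to 0.653 of its log2 ratios with those of the other arrays, which correlated with each other at 0.854 to 0.906 across probes above background in both channels. Irf1, a transcription factor induced directly by IFN-γ signalling, had a log2 ratio of 2.74 ± 0.20 (SD, n = 4) on its brightest probe and 0.29 on its second. All 8 markers of myogenic cells, such as Myod1 and Myog, were well above background in both channels on every array. Markers of other cells were also read: Pdgfra, Pdgfrb, Pi16, S100a4 and Tcf4 (fibroblast), Kdr and Pecam1 (endothelium) and Adgre1, Csf1r and Itgam (macrophage) were well above background in both channels on all 4 arrays. In neither channel of any array was this so for Tcf21 (fibroblast), Cdh5 (endothelium) or Lyz2 (macrophage). The channels differed for Thy1 and Dpt (fibroblast), Tek (endothelium) and Ptprc (macrophage). In Cy5 these were well above background on 2, 3, 4 and 4 arrays in turn, and in Cy3 on 0, 0, 0 and 1.

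Ratios are given as log2 of treated over control, after normalisation of each array by loess, a smooth curve through the ratio across intensity. In the limma fit over 15678 genes, with each gene read by its brightest tested probe, 3 of the 8 collagen genes were higher in treated cells at an adjusted p under 0.05, 1 was lower and 4 did not pass. Of all tested genes, 19.8% were called higher and 13.9% lower in the same fit. The median ratio of the 8 collagens was 0.21, beside 0.026 for all tested genes. Col14a1, Col3a1 and Col1a1 were higher and Col6a1 was lower, so under loess the members did not move as a group. The 4 called genes stood beside 33.7% of all tested genes called in either direction. Higher by at least 2-fold were 2 of the 8, Col14a1 and Col3a1, and 1.79% of all tested genes. The plot of loess ratios by array shows Col14a1 and Col3a1 at the top and both type VI genes below 0. The lower call of Col6a1 was lost under some other settings. When each array was centred on the median of its spots, all 8 members were called higher, as were 67% of all tested genes.

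**Figure D1:**
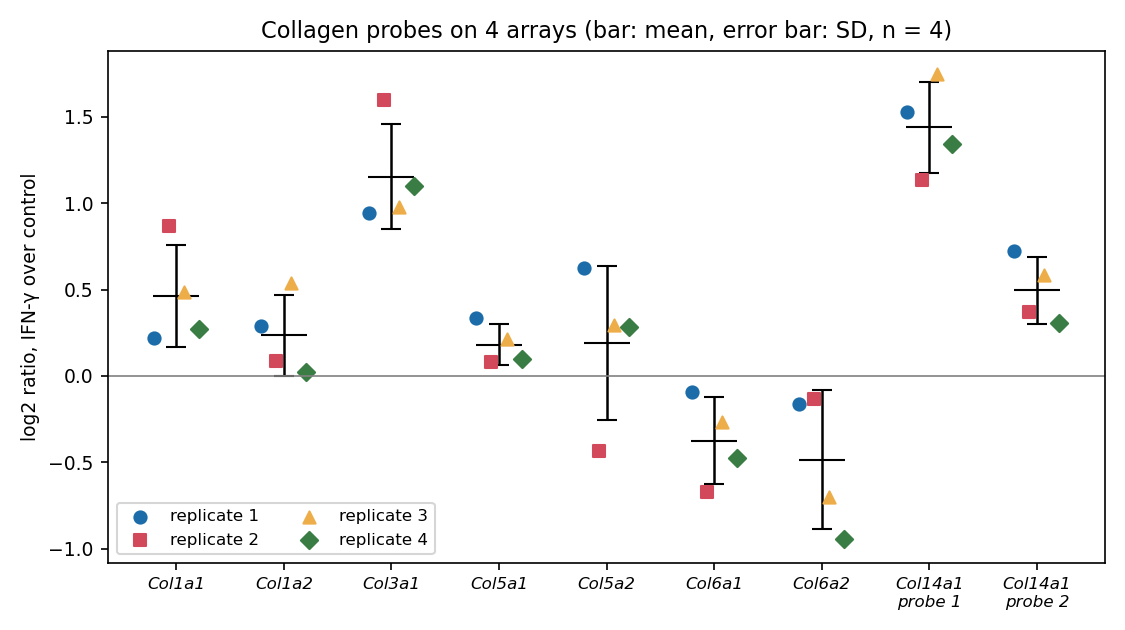
Log2 ratio of IFN-γ over control for each of the 9 collagen probes on the 4 arrays, with the mean as a bar and the SD as error bars (n = 4). Col3a1 and the first Col14a1 probe lie above 0.9 on every array, and the type VI genes Col6a1 and Col6a2 lie below 0 on every array.

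Col3a1, which encodes the chain of the type III homotrimer, was among the largest collagen responses. Its normalised log2 intensity was 17.02, 17.47, 17.11 and 17.13 in treated cells of replicates 1 to 4, against 16.08, 15.87, 16.13 and 16.03 in control cells. Every treated level lay above every control level, an arrangement found for 2 of the 8 collagen genes and for 20.0% of all tested genes. The log2 ratios were 0.94, 1.59, 0.98 and 1.10, highest on replicate 2, with a mean of 1.15 ± 0.30 (SD, n = 4), a 2.23-fold difference with an adjusted p of 0.00174 (limma). The probe was one of the brightest on the arrays, with raw intensities of 286573 to 329201 in Cy5 and 24301 to 43145 in Cy3, and no spot was saturated. The mean intensity of 106 of the 15678 tested genes was higher still, so the loess curve at this brightness rests on few spots. With the ratio of Agilent's Feature Extraction software in place of this loess, the mean was 1.12 ± 0.23 (adjusted p = 0.00360), and without replicate 2 it was 1.01 under loess.

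Col14a1 encodes type XIV collagen, which binds the surface of type I fibrils. On its brighter probe the normalised log2 intensity was 10.54, 10.14, 10.78 and 10.26 in treated cells, against 9.01, 9.01, 9.04 and 8.92 in control cells. The groups did not overlap, and control levels stood within a narrow band. The log2 ratio was 1.44 ± 0.26 (SD, n = 4), a 2.71-fold difference with an adjusted p of 0.000553 (limma), and was highest on replicate 3. Without replicate 2 the ratio was 1.54. The second probe, which reads the same transcript accession, had 7.81, 7.63, 7.90 and 7.61 in treated cells and 7.09, 7.26, 7.31 and 7.31 in control cells. These groups did not overlap either, but the log2 ratio was 0.50 ± 0.19 (adjusted p = 0.0117 in the fit over 28933 probes). Its raw control signal was 72 to 88, against 203 to 315 on the brighter probe, so the offset added before the logarithm takes up more of it. On each array that signal, though flagged above background, was dimmer than the median control spot (79.8 to 97). Feature Extraction's ratio, made without this offset, was 0.77 ± 0.22 for the dimmer probe and 1.58 ± 0.27 for the brighter. The cause of the difference between the probes was not tested. Both were called higher in the fit over probes, where 16.5% of all probes were called higher and 12.6% lower. Taking the mean of both probes gave Col14a1 a ratio of 0.97.

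**Figure D2:**
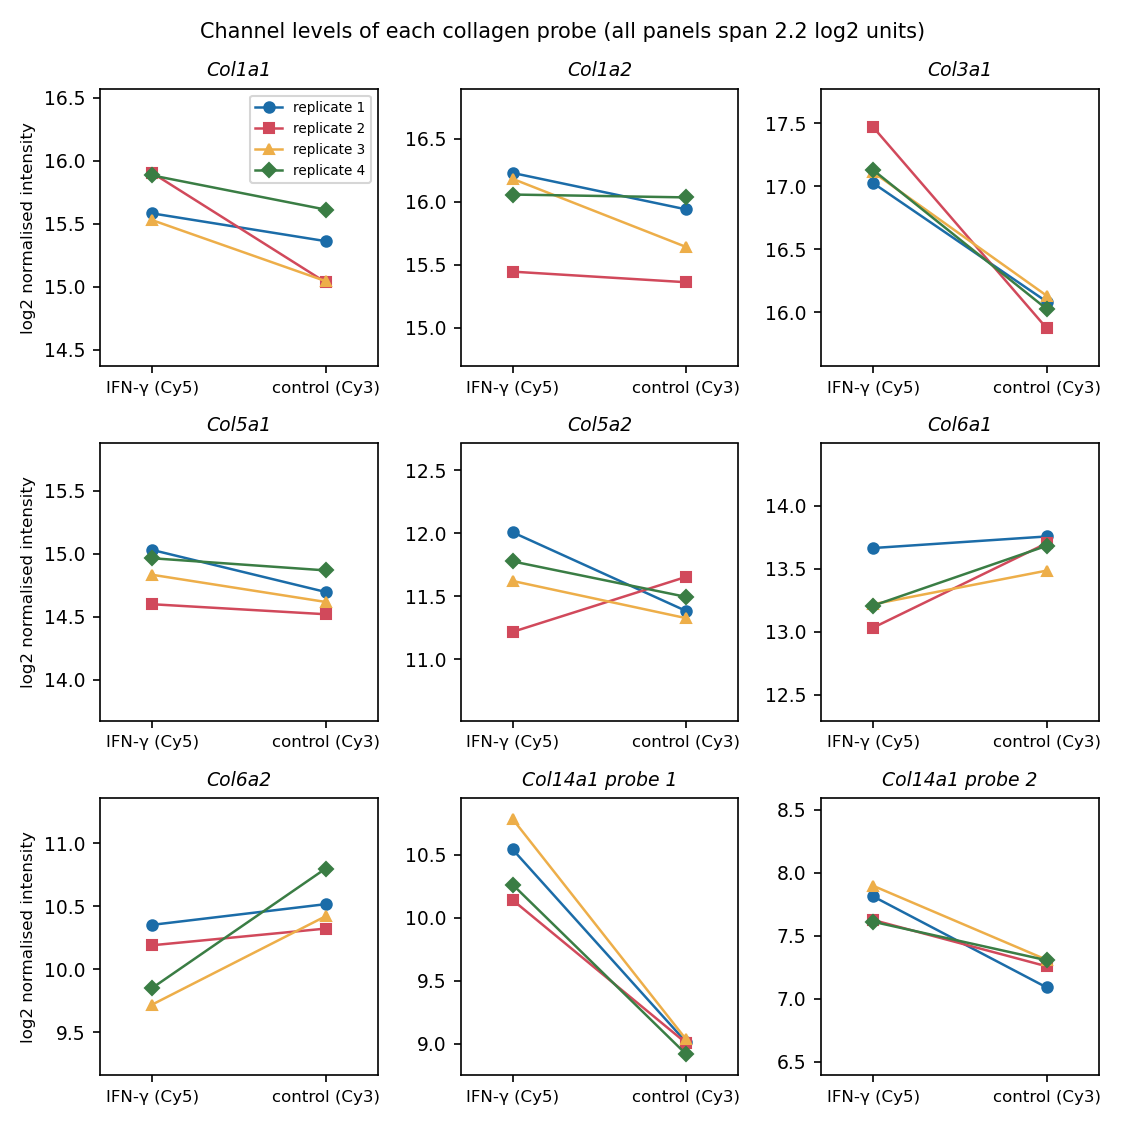
Normalised log2 intensity of each collagen probe in IFN-γ treated cells (Cy5, left) and control cells (Cy3, right), with 1 line per array and the same span of 2.2 log2 units in every panel. The lines of Col3a1 and of both Col14a1 probes fall towards control on all 4 arrays with no overlap of the groups, and those of Col6a1 and Col6a2 climb towards control.

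The type I pair, whose products join in a fixed ratio of chains in the main protein of tendon and bone, had smaller ratios. Col1a1 had normalised log2 intensities of 15.58, 15.90, 15.53 and 15.88 in treated cells, against 15.36, 15.04, 15.05 and 15.61 in control cells. Treated cells were higher within each array, although the groups overlapped across arrays, and replicate 2 had the largest difference. Its log2 ratio was 0.46 ± 0.29 (SD, n = 4), or 1.38-fold, with an adjusted p of 0.0274 (limma), and the call was lost without replicate 3 (0.45, adjusted p = 0.105) and without replicate 4 (0.52, adjusted p = 0.0631). Without replicate 2 the ratio was 0.33 and the call was kept (adjusted p = 0.0117). Col1a2 had 16.23, 15.45, 16.18 and 16.06 in treated cells and 15.94, 15.36, 15.64 and 16.04 in control cells. Its ratio was above 0 on all 4 arrays, at 0.29, 0.08, 0.54 and 0.02, with a mean of 0.23 ± 0.23 that did not pass (adjusted p = 0.120, 95% interval −0.01 to 0.48). The ratio of Col1a1 minus that of Col1a2 was −0.07, 0.78, −0.06 and 0.25 on replicates 1 to 4, so the order of the pair changed between arrays.

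The difference between Col3a1 and Col1a1 was steadier. The log2 ratio of Col3a1 minus that of Col1a1 was 0.72, 0.73, 0.50 and 0.83 on the 4 arrays, with a mean of 0.69 ± 0.14 (SD, n = 4). The response of Col3a1 thus exceeded that of Col1a1 on every array, a description over 2 probes that was given no test. Both genes had their highest ratio on replicate 2. Col1a2, the other type I gene, is not part of this difference.

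Type V genes did not pass the test. Col5a1 had 15.03, 14.60, 14.83 and 14.96 in treated cells and 14.70, 14.52, 14.62 and 14.87 in control cells, a log2 ratio of 0.18 ± 0.12 (adjusted p = 0.0957, 95% interval 0.01 to 0.35). Treated cells were higher on all 4 arrays by amounts of 0.08 to 0.33. Col5a2 had 12.01, 11.22, 11.62 and 11.77 in treated cells and 11.38, 11.65, 11.32 and 11.49 in control cells, a ratio of 0.19 ± 0.45 (adjusted p = 0.413, 95% interval −0.21 to 0.59). It was the only member with both signs, lower in treated cells on replicate 2 (−0.44) and higher on the other arrays. Without replicate 2 both genes passed, Col5a1 with 0.22 (adjusted p = 0.0464) and Col5a2 with 0.40 (adjusted p = 0.00836). Col3a1 and Col5a2 are neighbours on chromosome 1 with 0 protein-coding genes between them, and the ratio of Col3a1 minus that of Col5a2 was 0.32, 2.03, 0.68 and 0.82.

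Type VI genes lay on the other side of 0 under loess. Col6a1 had normalised log2 intensities of 13.66, 13.03, 13.22 and 13.21 in treated cells, against 13.76, 13.70, 13.49 and 13.68 in control cells. Its log2 ratio was −0.38 ± 0.25 (SD, n = 4), or 0.771-fold, with an adjusted p of 0.0361 (limma), and treated cells were lower on every array, least on replicate 1. The call was kept without replicate 2 (−0.28, adjusted p = 0.0341). It was lost with centring on the tested genes (−0.03, adjusted p = 0.815), with Feature Extraction's ratio (−0.39, adjusted p = 0.0579), without replicate 3 (−0.41, adjusted p = 0.0958) and without replicate 4 (−0.34, adjusted p = 0.136). Col6a2 had 10.35, 10.19, 9.72 and 9.85 in treated cells and 10.52, 10.32, 10.42 and 10.80 in control cells. Its ratio of −0.49 ± 0.40 missed the threshold (adjusted p = 0.0514, 95% interval −0.85 to −0.12), with values of −0.16 and −0.13 on replicates 1 and 2 and of −0.70 and −0.95 on replicates 3 and 4. It passed without replicate 2 (−0.60, adjusted p = 0.0102). The genes are neighbours on chromosome 10, with 0 protein-coding genes between them.

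Of the 8 genes, 5 had a ratio above 0 on 4 of 4 arrays, as did 29.5% of all tested genes, and 2 had a ratio below 0 on 4 of 4 arrays, as did 22.7%. Together 7 of the 8 kept 1 sign on every array, as did 52.2% of all tested genes. The median of the 5 fibrillar genes was 0.33, 0.08, 0.48 and 0.27 on replicates 1 to 4, and that of the 2 type VI genes was −0.13, −0.40, −0.48 and −0.71. The fibrillar median exceeded the type VI median on each array. Col3a1, Col1a2 and Col1a1 lay near the bright end of the arrays and Col14a1 near the middle, as the plot against intensity shows, so the larger ratios did not belong to one range of brightness.

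**Figure D3:**
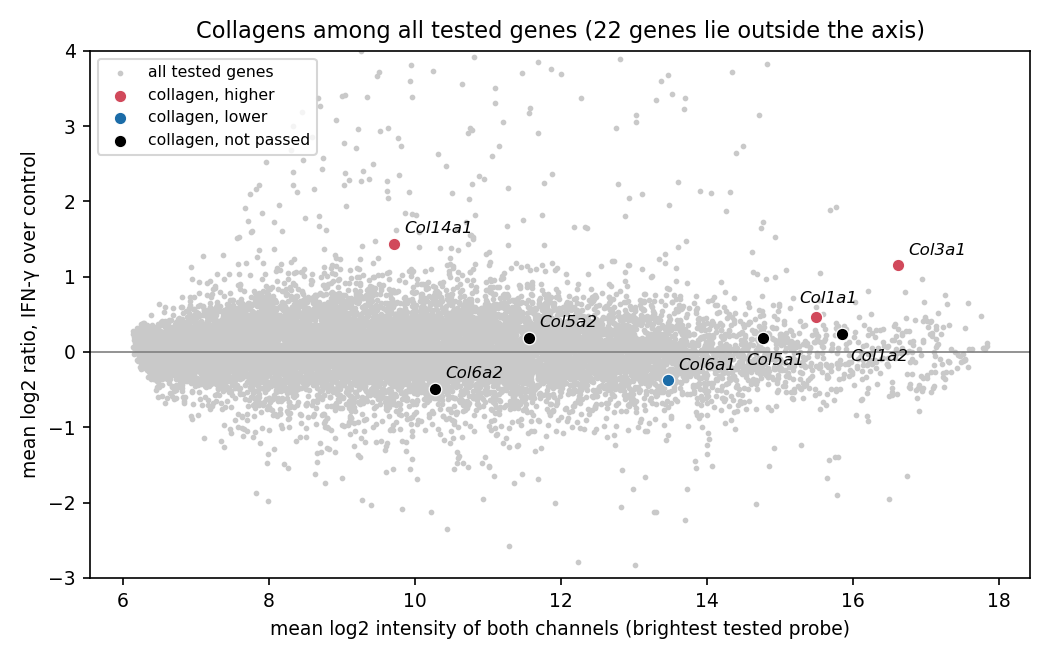
Mean log2 ratio of IFN-γ over control (n = 4 arrays) against mean log2 intensity of both channels for all 15678 tested genes in grey, with 22 genes outside the axis. Col14a1, Col3a1 and Col1a1 (called higher) lie above 0 at different intensities, and Col6a1 (called lower) lies below.

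The direction of the type VI genes depended on the scale, whereas the order of the members over all 4 arrays changed little with it. When each array was centred on the median of its spots in place of loess, all tested genes had a median of 0.70, and Col6a1 and Col6a2 had 0.64 and 0.46, above 0 but below that median. Relative to the median of all tested genes, Col6a1 lay between −0.41 and −0.06 and Col6a2 between −0.59 and −0.24 over 8 settings. Col3a1 lay between 1.10 and 1.50 above that median, Col14a1 between 0.94 and 1.64, Col1a1 between 0.43 and 0.80 and Col1a2 between 0.20 and 0.58. Below Col14a1 and Col3a1, Col1a1 ranked next and Col6a1 and Col6a2 were the last pair under each of these settings, and Col14a1 ranked first except with the mean of its probes, where Col3a1 did. With fewer arrays the order changed: without replicate 2, Col5a2 (0.40) stood above Col1a1 (0.33), and without replicate 4, Col6a1 (−0.34) and Col6a2 (−0.33) were level.

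**Figure D4:**
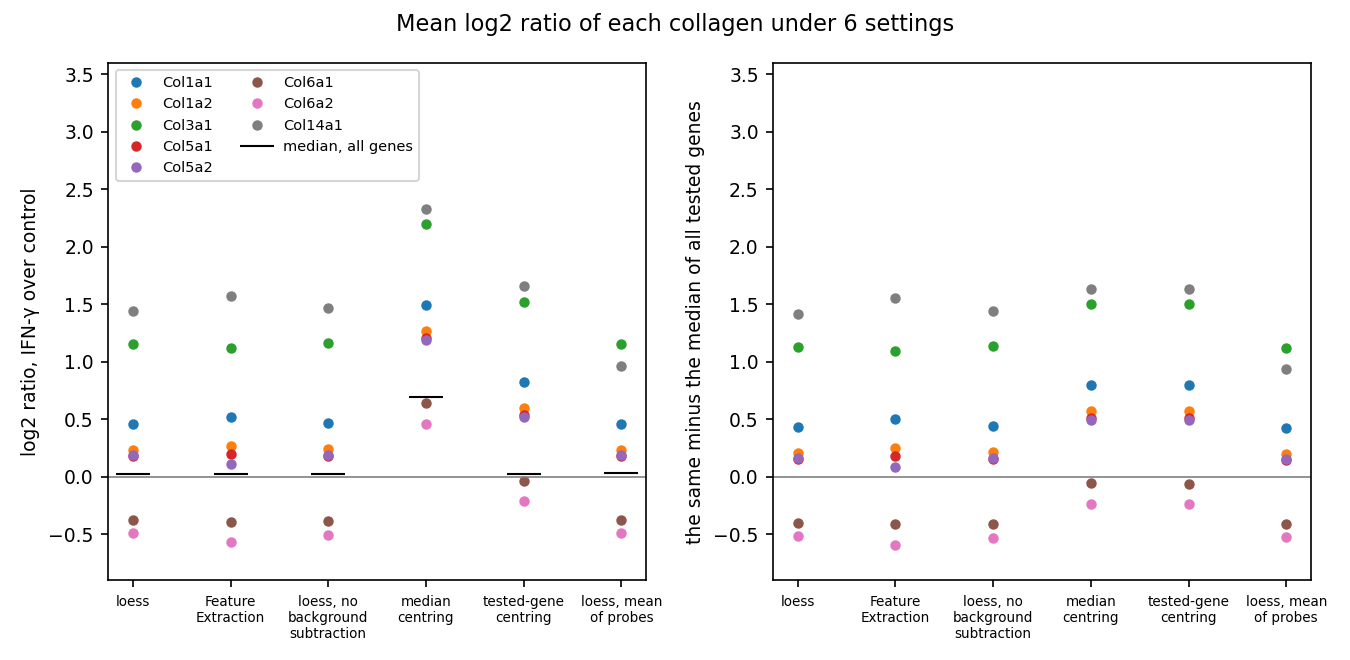
Mean log2 ratio of IFN-γ over control for each collagen gene under 6 settings, as such on the left and minus the median of all tested genes on the right. Median centring moves each collagen up, and the median of all tested genes to 0.70, and Col6a1 and Col6a2 stay below that median in each setting.

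The 5 genes whose ratios on the 4 arrays were nearest to those of Col14a1, the member with the largest mean ratio, were Olfml2b, Gm4788, Pla1a, Idnk and C1rb. Their root-mean-square differences from Col14a1 were 0.131, 0.139, 0.162, 0.180 and 0.186 log2 units, over 4 arrays. Olfml2b, which encodes a secreted olfactomedin-domain protein, had a ratio of 1.41 ± 0.23 (SD, n = 4), and the others had means between 1.29 and 1.50. Their ratios were chosen to resemble those of Col14a1, and no test is given for them.

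Genes of collagen production and turnover were counted by list, beside the 19.8% of all tested genes called higher and the 13.9% called lower. Of 23 tested genes that fold and modify collagen chains, 7 were higher, 1 was lower and 15 did not pass; the list median was 0.23. The number higher was 3, 13, 1 and 2 without replicates 1, 2, 3 and 4 in turn, and 4 with Feature Extraction's ratio. Of all tested genes, 13.2%, 25.9%, 10.2% and 11.5% were higher without these replicates in turn, and 19.2% with Feature Extraction's ratio. Serpinh1, the collagen-specific chaperone HSP47, had 0.09 ± 0.22 (adjusted p = 0.508), and P4ha1, a catalytic subunit of prolyl hydroxylase, had −0.08 ± 0.13. P4hb, the other subunit of that enzyme and a disulphide isomerase, rose by 0.46 ± 0.33 (adjusted p = 0.0353), with −0.03 on replicate 2, and was not called without replicate 1, 3 or 4 (adjusted p = 0.126 to 0.138). Sec24d, a coat protein of the vesicles that carry procollagen, rose by 0.68 ± 0.15 (adjusted p = 0.00225). Colgalt1, which adds galactose to hydroxylysine, rose by 0.63 ± 0.37 (adjusted p = 0.0181), a call lost without replicate 3 (adjusted p = 0.0825).

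Crosslinking enzymes were among the genes that rose. Of 12 tested genes of processing and crosslinking, 6 were higher, 1 was lower and 5 did not pass; the list median was 0.27. Tgm2, a transglutaminase, rose by 1.18 ± 0.17 (SD, n = 4, adjusted p = 0.00041), with 1.24 on its second probe. Lox, the lysyl oxidase that starts covalent crosslinks, rose by 0.93 ± 0.13 with 0.66 on its second probe, and its relative Loxl3 rose by 0.93 ± 0.11. Bmp1, the protease that removes the C-terminal propeptide, had 0.05 ± 0.64 on its brighter probe and −0.82 on its second, which was called lower. Pcolce, its enhancer, had 0.21 ± 0.26 (adjusted p = 0.180).

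Of 12 tested fibril-associated proteins, 7 were higher and the other 5 did not pass; the list median was 0.33. Without replicate 1 the number higher was 4 (13.2% of all tested genes higher), and without replicate 3 it was 3 (10.2%). The small leucine-rich proteins Ogn and Aspn rose by 1.12 ± 0.35 and 0.86 ± 0.20, and Postn, which encodes periostin, rose by 0.73 ± 0.33 (adjusted p = 0.00855). Fn1, which encodes fibronectin, had 0.24 ± 0.50 and did not pass.

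Collagens outside the interstitial group had a median of −0.01. Of 25 tested genes, 3 were higher, 3 were lower and 19 did not pass. Without replicate 2 the number higher was 8, beside 25.9% of all tested genes. Col8a2 rose by 1.14 ± 0.08 on its brighter probe, with 0.03 on its second. Col4a1, of basement membranes, rose by 0.73 ± 0.19 (adjusted p = 0.00264), and Col10a1, of growing cartilage, had −0.62 ± 0.19 (adjusted p = 0.00445). Col5a3, the remaining type V chain, had −0.20 ± 0.23 and did not pass, and was above 0 under median centring (0.81).

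Receptors moved in both directions. Among 11 tested receptor genes with a median of 0.15, the test called 5 higher and 3 lower and left 3 uncalled. The number higher was 3 without replicate 3 (10.2% of all tested genes higher). The number lower was 1 without replicate 4 (6.9% of all tested genes lower). Mrc2, which takes up collagen for breakdown, rose by 1.09 ± 0.24 on its brighter probe, with 0.06 on its second, and Antxr1 rose by 0.71 ± 0.19 (adjusted p = 0.00279). Cspg4, the NG2 proteoglycan that binds type VI collagen, had −0.58 ± 0.08 (adjusted p = 0.00201), but 0.41 under median centring, below the median of all tested genes. Itgb1, the β1 integrin chain shared by collagen receptors, had 0.39 ± 0.07 on its brighter probe and −0.53 on its second, and both were called, in opposite directions. The collagen-binding kinases Ddr1 and Ddr2 had −0.24 ± 0.22 and 0.15 ± 0.51, neither past the threshold, and Ddr1 had 0.77 under median centring.

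Of 9 tested genes of collagen degradation, 1 was higher, 1 was lower and 7 did not pass; the list median was 0.14. Fap, a surface protease, rose by 0.25 ± 0.14 (adjusted p = 0.0438) but had −0.54 with centring on the tested genes. It was not called without replicate 1, 3 or 4 (adjusted p = 0.0813 to 0.184), and its control signal was well above background on 3 arrays. Timp2, an inhibitor of metalloproteinases, had −0.61 ± 0.44 (adjusted p = 0.0327) on its brighter probe, 0.10 on its second, and 0.43 under median centring, and was not called without replicate 3 (adjusted p = 0.0707) or 4 (adjusted p = 0.121). Timp1 had 0.14 ± 0.29 and did not pass.

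Among regulators of collagen transcription and message, 13 of 25 tested genes were higher, 1 was lower and 11 did not pass; the list median was 0.23. The number higher was 5 without replicate 1, 5 without replicate 3 and 6 without replicate 4. Of all tested genes, 13.2%, 10.2% and 11.5% were higher in these fits in turn. Tgfb2, a ligand of the pathway that drives collagen synthesis, had −1.47 ± 0.10 (adjusted p = 6.34e-05), while Tgfb1 rose by 0.62 ± 0.35 (adjusted p = 0.0167), a call lost without replicate 1 (adjusted p = 0.0687) and without replicate 3 (adjusted p = 0.0522). Ccn2, a connective tissue growth factor, rose by 0.99 ± 0.08 (adjusted p = 0.00031). Ciita, which in human fibroblasts takes part in repression of type I collagen by IFN-γ, rose by 1.04 ± 0.60 (adjusted p = 0.0140), and was not called without replicate 1, 3 or 4 (adjusted p = 0.0570 to 0.0670). Its partner Rfx5 had 0.15 ± 0.06 (adjusted p = 0.110), with a control signal well above background on 1 array, and had −0.93 with centring on the tested genes. Smad3 had 0.01 ± 0.06 on its brighter probe and 0.27 on its second, and Ybx1 had 0.23 ± 0.32.

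**Figure D5:**
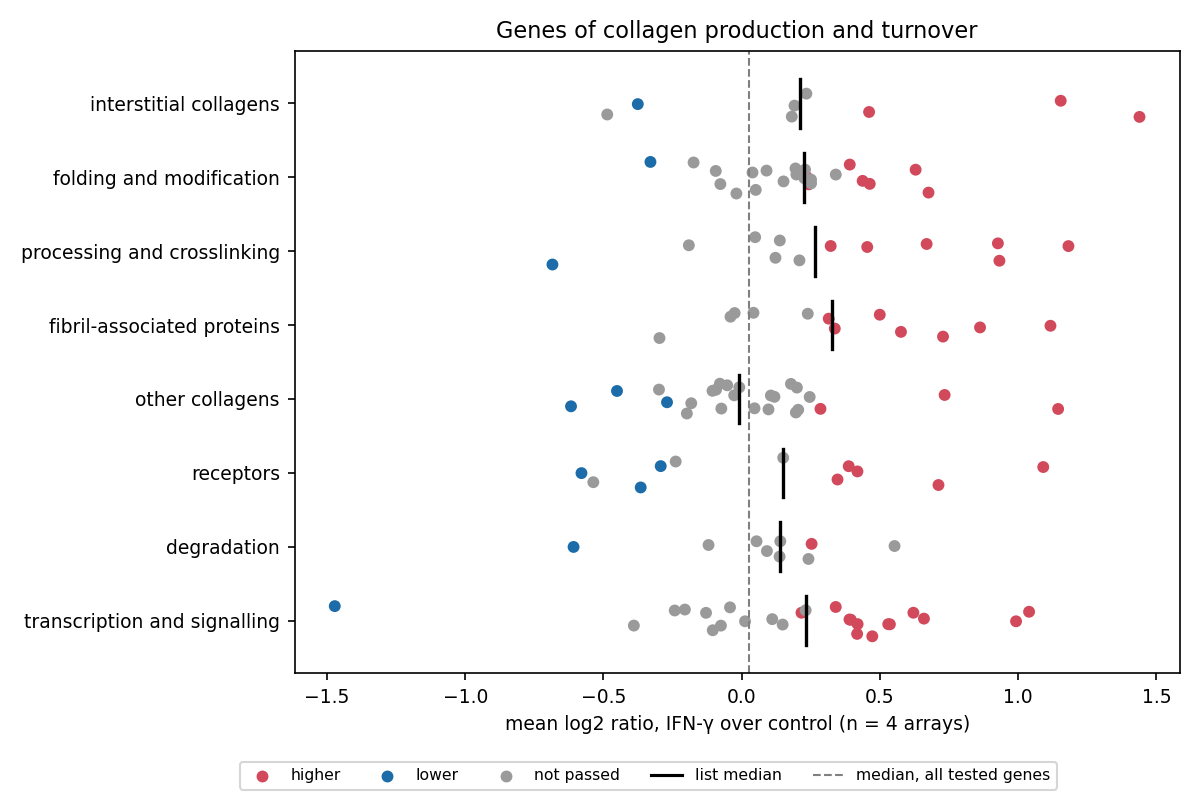
Mean log2 ratio of IFN-γ over control (n = 4 arrays) for the interstitial collagens and 7 lists of genes of collagen production and turnover, 1 point per gene coloured by its call, with list medians in black and the median of all tested genes dashed. The list medians run from −0.01 for other collagens to 0.33 for fibril-associated proteins, with single genes on both sides of 0 in each list.

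Markers of fibroblasts, the usual source of these collagens, were read in the same fit. In it 19.8% of all tested genes were called higher, 13.9% lower and 33.7% in either direction. Of 6 tested fibroblast markers, 2 were higher, 1 was lower and 3 did not pass. Those that did not pass were Tcf4 (−0.65 ± 0.59), S100a4 (0.18 ± 0.28) and Dpt (0.14 ± 0.07), each on its brightest probe. The second probe of Tcf4 was called lower (−0.63) and that of S100a4 was called higher (0.53). The summed log2 level of the fibroblast list was 17.56 to 17.65 in treated cells and 17.32 to 17.63 in control cells. Such a level is the log2 of added intensities, so the brightest gene of a list weighs most. In the fibroblast list this was S100a4, with mean levels of 17.23 in treated and 17.05 in control cells. Pdgfra, a receptor of mesenchymal cells, rose by 0.67 ± 0.17, and Pdgfrb by 0.65 ± 0.25, whereas Pi16 had −1.40 ± 0.35. Of the 8 myogenic markers, 1 was higher (19.8% of all tested genes), 4 were lower (13.9%) and 3 did not pass. Their summed log2 level was 17.55 to 17.83 in treated cells and 18.03 to 18.39 in control cells. Myh3 was the brightest of them, with mean levels of 16.57 in treated and 17.19 in control cells. Des, which encodes desmin, had −1.23 ± 0.26, a call lost under median centring (−0.21, adjusted p = 0.0881). Myog had −0.01 ± 0.40, and 1.02 under median centring. Among markers of other cells, 1 of 4 tested macrophage genes and 1 of 3 tested endothelial genes were called, both lower. These small counts stand beside the 33.7% of all tested genes called in either direction. The macrophage gene, Csf1r, had −0.40 ± 0.04 on its brightest probe, but −0.06 and 0.03 on its other probes, which did not pass. The endothelial gene, Kdr, had −1.02 ± 0.28. The summed log2 level was 15.43 to 16.11 in treated cells and 15.77 to 16.27 in control cells for the macrophage list, and 10.79 to 11.34 in treated cells and 11.67 to 12.16 in control cells for the endothelial list. In RNA of whole cultures, fewer cells of a kind and less RNA per cell cannot be told apart, and the part of such shifts in the collagen ratios was not tested.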

How the data were processed

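Total RNA (8 µg, per the labels) of treated and control C2C12 cells was hybridised to 4 Agilent two-colour arrays. The deposited scanner files hold median spot and background intensities, per the file headers, made by the authors with Feature Extraction 10.7.3.1. A log10 ratio of the red over the green channel stands beside them, deposited by the authors. The deposited value table is in log2 units; its slope on the log10 ratios was 3.32 on each array (3.32 is log2 of 10), so it holds Cy5 over Cy3. The medians of its columns were −0.109, −0.116, −0.124 and −0.105, and its centring is unknown.

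Background was corrected with normexp (offset 50) and ratios were normalised within arrays by loess, both with limma 3.58.1 (R 4.3.3), with control spots at weight 0, outlier spots left out and spots of a probe averaged. Gene symbols came from RefSeq (assembly GRCm38.p6) by transcript accession: 26055 of 39429 received 1 symbol, 0 several and 13374 none. Tested probes exceeded background clearly on 3 or more arrays in one of the channels. The ratio was tested against 0 with lmFit and eBayes, two-sided, with Benjamini-Hochberg adjustment over all tested genes or probes. Normalised log2 intensities of a channel follow loess and Aquantile normalisation.

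The members, lists and settings were chosen with earlier results of these data known, so no list is independent support. Named genes are the members, up to 3 called genes with the largest change and the brightest gene that did not pass in each of 7 lists, a fixed set, and the 5 genes nearest to the member with the largest ratio; Irf1, Des, Pdgfrb, Pi16 and other markers were added after values were seen. The files name a genome build other than that of the gene table, so gene coordinates are not printed; promoter windows carry the build of their own table. The fit was tested on simulated data. The number of arrays limits the precision, and alternatives are given in the closing section.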

Additional observations from a re-analysis of the deposited data

How the results depend on the processing

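Loess kept Col3a1, Col14a1 and Col1a1 higher, as did Feature Extraction's ratio, the value table, no background subtraction, both channels above background, the mean of probes and both kinds of median centring. The number of the 8 genes called higher was 8 under median centring (of all genes, 10510 or 67% higher), 6 with centring on the tested genes (4709 higher and 5478 lower) and 2 to 5 without single replicates (1594 to 4060 of all genes higher and 927 to 2981 lower). The number called lower was 0 with Feature Extraction's ratio, the value table, both kinds of median centring and the methods' t-test, 2 with no background subtraction (14.3% of all genes lower), with both channels above background (16.6%) and with the mean of probes (13.4%), and 0 to 2 without single replicates. The methods' t-test, which ignores that treated and control RNA share an array, called Col3a1 and Col14a1 after Benjamini-Hochberg adjustment (2 members, and 16.4% of all genes higher and 9.52% lower). At an unadjusted p under 0.05 it called 3 members higher and 2 lower (24% and 16% of all genes). The median ratio was 1.24 under median centring, 0.57 with centring on the tested genes and 0.163 to 0.305 without single replicates. Of the 9 probes, 9 were higher and 0 lower under median centring (56.9% and 21.9% of all probes), and 0 were lower with Feature Extraction's ratio (12.8%). In the 7 lists, of 9 to 25 tested genes each, 42 were higher and 10 lower under loess (19.8% and 13.9% of all genes). Median centring called 94 higher and 12 lower (67% and 16.9%), and centring on the tested genes 61 and 27 (30% and 34.9%). Without single replicates 19 to 56 were higher (10.2% to 25.9%) and 6 to 13 lower (5.92% to 19%). Median centring turned the sign of Col6a1 (0.64), Col6a2 (0.46), Col5a3 (0.81), Cspg4 (0.41), Ddr1 (0.77), Myog (1.02), P4ha1 (0.92), Timp2 (0.43) and Rfx5 (−0.26). Centring on the tested genes turned that of Fap (−0.54), Rfx5 (−0.93), Col5a3 (0.14), Ddr1 (0.10), Myog (0.35) and P4ha1 (0.25), and the mean of probes that of Itgb1 (−0.074) and Bmp1 (−0.39). Other sign changes were of uncalled values, of Smad3 with Feature Extraction's ratio and the value table, and of Bmp1, Ddr2, Myog, Serpinh1 and Smad3 without single replicates. Both kinds of median centring shift an array by 1 number and correct no trend with brightness. The cause of the sign changes was not tested. The ratio within an array already pairs treated with control RNA. The 4 arrays form 1 group of such ratios, so there was no further group to block by number. Dixon's criterion flagged no array in a collagen probe's ratio or level, or in a list median. Each such test had only 4 values and can flag only a very wide gap, so it cannot tell if an array stood apart. Across all probes above background in both channels, replicate 2 did stand apart, with correlations of 0.524 to 0.653 with the other arrays.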
